A study of Mus musculus with 2 samples.

Results

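The 8 genes described here, measured in newborn mouse hindbrain, serve the entry, conversion, binding and action of thyroid hormone: the nuclear receptors Thra and Thrb, the deiodinases Dio2 and Dio3, the membrane transporter Slco1c1, the cytosolic hormone-binding protein Crym, and the hormone-responsive genes Klf9 and Hr. They were chosen by name for this pathway and matched by Ensembl identifier, and all 8 were found among the 43346 mouse genes listed in the deposited tables. The tables come from hindbrains of B6NCrl pups at postnatal day 0, untreated as far as the labels say, with 1 library from pup 1 (replicate 1) and 1 from pup 3 (replicate 2). Each library began with 13 pg of RNA, an amount the labels call a cell-equivalent although it is tissue RNA, so each value is a very small draw from a mixture of cell types. Both pups carry the same donor record, there is 1 group, and each animal gave 1 library, so a contrast of pup 1 with pup 3 cannot be checked in replicates and carries no p-value. RNA over 200 nt was extracted with mirVana, and a Smart-seq protocol, which usually primes from poly(A) tails, is cited.

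Thyroid hormone reaches the brain mainly as thyroxine, which transporters such as the Slco1c1 product carry across capillary walls. The type 2 deiodinase encoded by Dio2 turns thyroxine into the active hormone triiodothyronine, and the type 3 enzyme encoded by Dio3 inactivates both. Triiodothyronine then binds receptors that sit on DNA with a retinoid X receptor (RXR) partner, repressing target genes without hormone and activating them with it. In the cerebellum and brainstem this signal is known for its part in the timing of neuron maturation and myelination around birth.

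Thra makes several proteins from 1 gene, and the results for it turn on which 3′ end was sequenced. The gene (ENSMUSG00000058756.9) lies on the plus strand of chromosome 11, from 98740638 to 98769006 on the GRCm38 assembly. The TRα1 form (transcript Thra-202, ENSMUST00000103139.6) has 9 exons and 410 codons and binds hormone. The TRα2 form (Thra-201, ENSMUST00000064187.7) leaves exon 9 after 128 bases, splices to an exon 10 of 850 bases and has 492 codons, and its protein does not bind triiodothyronine. The forms share their first 1110 coding bases. The sequences below, from GENCODE M21 transcripts, show how the messages part. Each gives the last 24 shared coding bases in lower case, followed in capitals by 120 bases that belong to that form, which is all the remaining coding sequence of TRα1 before its stop codon and the first part of the 366 remaining in TRα2:
TRα1 form, Thra-202: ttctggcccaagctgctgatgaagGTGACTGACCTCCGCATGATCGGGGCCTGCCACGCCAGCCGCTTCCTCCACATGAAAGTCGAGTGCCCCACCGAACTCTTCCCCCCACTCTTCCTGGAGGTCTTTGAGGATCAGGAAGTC
TRα2 form, Thra-201: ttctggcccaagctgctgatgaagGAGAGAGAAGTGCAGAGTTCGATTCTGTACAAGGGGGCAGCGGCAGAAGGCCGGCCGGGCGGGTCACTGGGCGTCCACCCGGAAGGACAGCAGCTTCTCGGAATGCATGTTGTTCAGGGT
Position by position, 35 of the 120 form-specific bases shown are identical. Exon 10 of TRα2 overlaps the last exon of Nr1d1, the circadian repressor gene on the opposite strand, by 263 bases, whereas the TRα1 form ends 2820 bases before that exon begins.

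**Figure D1:**
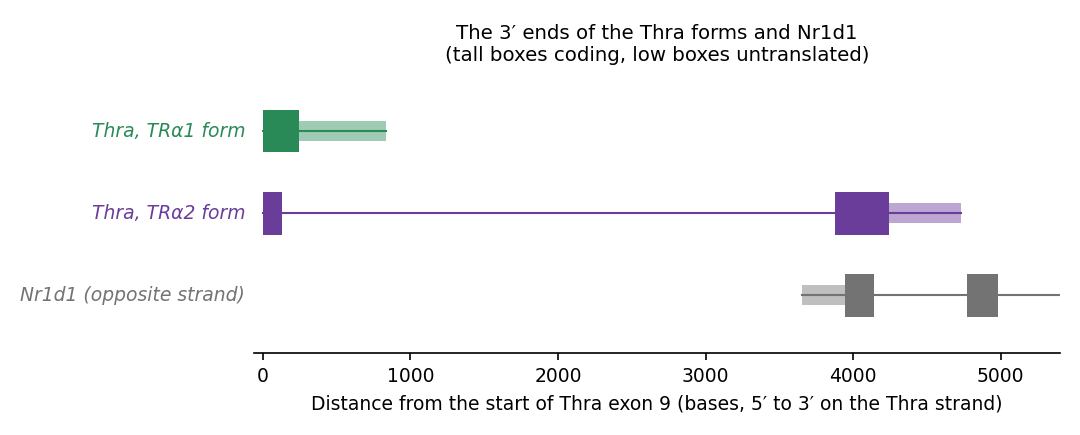
Map of the 3′ ends of both Thra forms and of Nr1d1, with distance from the start of Thra exon 9 in bases along the Thra strand; tall boxes are coding and low boxes untranslated. TRα1 ends within exon 9, and only the exon 10 of TRα2 shares bases (263) with the last exon of Nr1d1.

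The libraries held 35462381 expected counts in pup 1 against 29866728 in pup 3, where an expected count is an estimate that splits a read shared among transcripts. They counted 10735 protein-coding genes in pup 1 and 9272 in pup 3 at the detection limit used here, 5 expected counts. Levels below are in TPM, a share of all transcripts scaled for transcript length, rescaled over the 43309 nuclear genes unless called deposited TPM. The hindbrain label was checked against 12 marker genes, of which 8 were detected in both pups, with Meis1 at 228 TPM in pup 1 against 195 TPM in pup 3 and Hoxb5 at 93.2 TPM in pup 1 against 124 TPM in pup 3. Of 8 forebrain markers 7 had 0 counts in both pups, and Neurod6 was at 18.6 TPM in pup 1 against 49.4 TPM in pup 3. Of 9 thyroid and pituitary markers 8 had 0 counts in both pups. Pax8, a thyroid factor also expressed in the developing hindbrain, had 458 counts in pup 1 against 0 in pup 3.

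Of the 8 genes, 2 were detected in both pups (Thra and Klf9), Slco1c1 in pup 1 only, Crym in pup 3 only, and Thrb, Dio2, Dio3 and Hr in neither. Each pup thus had 3 of the 8. Of all 21461 protein-coding genes, pup 1 had 50% and pup 3 had 43.2%. Both pups had 37.8% of them, pup 1 alone 12.3%, pup 3 alone 5.45% and neither 44.5%, so the counts for the 8 genes lay near this background. A count of at least 50 in at least 1 pup was reached by 4 of the 8. Between the pups, 1 of these 4 was at least 4-fold higher in pup 1 (Slco1c1) and 1 at least 4-fold higher in pup 3 (Crym), on the TPM + 1 scale. Of 11245 protein-coding genes with such counts, 39.8% were past 4-fold, 23.6% higher in pup 1 and 16.2% higher in pup 3, and 61.9% were past 2-fold, as were all 4 of the genes measured here. Thra had the highest level of the 8 in each pup. Behind it the order was Slco1c1, Klf9, Crym in pup 1 and Crym, Klf9, Slco1c1 in pup 3. The means were 16.4 ± 23.1 TPM for Crym, 9.14 ± 6.40 TPM for Klf9 and 8.83 ± 12.5 TPM for Slco1c1 (SD, n = 2). The spreads of Crym and of Slco1c1 each covered the other means, whereas the Crym mean lay outside the narrower spread of Klf9.

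**Figure D2:**
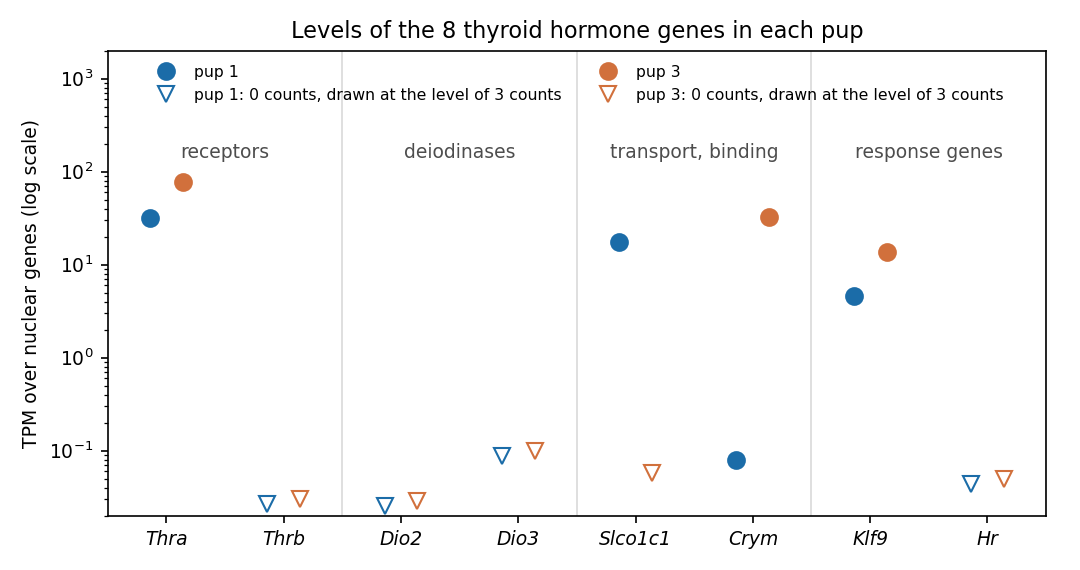
TPM over nuclear genes (log scale) of the 8 genes, with pup 1 to the left of pup 3 for each gene; filled circles are measured values, and open triangles mark 0 counts and are drawn at the level that 3 counts would give. Thra and Klf9 are present in both pups, Slco1c1 and Crym stand high in opposite pups, and Thrb, Dio2, Dio3 and Hr have 0 counts in each; the Crym circle of pup 1 rests on 2 counts.

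Thra, the receptor gene expressed widely in the brain before birth, was the best measured of the 8. It had an expected count of 1540 in pup 1 and 3331 in pup 3, and its level was 32.2 TPM in pup 1 against 77.6 TPM in pup 3, a mean of 54.9 ± 32.1 TPM (SD, n = 2). Pup 1 was the lower of the pups, with a log2 ratio of pup 1 over pup 3 of -1.24. The level was at or above that of 78.9% of protein-coding genes in pup 1 and 88.7% in pup 3. Of 1049 other protein-coding genes detected in both pups and within 1.25-fold of the geometric mean level of Thra, 33.6% differed between the pups by as much or more, so a difference of this size was common at this level. All 10 neuron markers were detected in both pups, with summed levels of 10309 TPM in pup 1 against 7537 TPM in pup 3 and a median log2 ratio of pup 1 over pup 3 of -0.04, and their part in the level of Thra was not tested.

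The forms of Thra were unequal in both pups, with TRα2 the main one. In pup 1 the TRα2 transcript had an expected count of 1280 and took 81.6% of the gene's deposited TPM, and the TRα1 transcript had 259 and took 18.1%. In pup 3 TRα2 had 3326 and took 99.7%, and TRα1 had 0. Hormone-binding TRα1 was thus counted in pup 1 alone, at 5.15 deposited TPM, and the mean share was 9.04 ± 12.8% for TRα1 and 90.7 ± 12.8% for TRα2 (SD, n = 2). The authors' quantifier also gives posterior mean TPM values with credibility bounds, of unstated level. For TRα1 these were 5.04 TPM in pup 1 (bounds 4.27 and 5.79) and 0.05 TPM in pup 3 (upper bound 0.156). For TRα2 they were 22.7 TPM in pup 1 (21.4 and 23.998) and 66.6 TPM in pup 3 (64.0 and 69.2). The bounds of neither form overlapped between the pups, but they hold only the uncertainty of assigning and counting reads, not that of capturing molecules from 13 pg of RNA. The other 7 listed Thra transcripts together took 0.29% in pup 1 and 0.30% in pup 3.

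**Figure D3:**
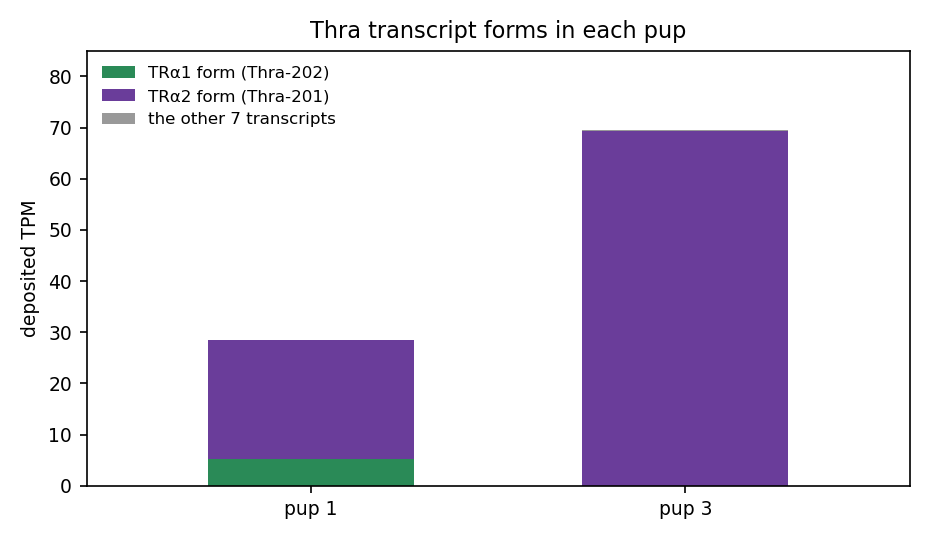
Stacked bars of deposited TPM of the Thra forms in pup 1 and pup 3. TRα2 makes up most of the bar in pup 1 (23.3 TPM beside 5.15 TPM of TRα1) and nearly all of it in pup 3 (69.3 TPM beside 0).

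Neither the labels nor the file headers say whether counting used strand, so reads of the 263 shared bases of TRα2 and Nr1d1 may not be told apart. Nr1d1 itself had expected counts of 29.0 in pup 1 and 8.42 in pup 3, beside 1280 in pup 1 and 3326 in pup 3 for the TRα2 transcript. Its relative Nr1d2, which lies on another chromosome, had 48 counts in pup 1 against 1472 in pup 3. The flanking gene Med24, a Mediator subunit, was at 83.9 TPM in pup 1 against 46.6 TPM in pup 3. As a share of counts without length scaling, Med24 was instead 1.05-fold higher in pup 3, so its counts do not show the gap seen in TPM.

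Thrb, the second receptor gene (ENSMUSG00000021779.12, chromosome 14, 17660261 to 18038090), known for roles in the retina, inner ear and pituitary, had 0 counts in both pups. All 3 of its listed transcripts, which include both amino-terminal forms, were at 0. At its listed effective length 3 counts would have given 0.0267 TPM in pup 1 and 0.0303 in pup 3, which are the levels that 0 counts allow. These limits hold for counting only. They do not cover the loss of rare molecules before amplification, and 41.4% of protein-coding genes had 0 counts in both pups.

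Both deiodinases were at 0 counts in each pup. Dio2 (ENSMUSG00000007682.5, chromosome 12, 90724552 to 90738438), an astrocyte and tanycyte gene in the brain, was limited to 0.0253 TPM in pup 1 and 0.0287 in pup 3 by the same measure. Its exons overlap the lncRNA gene Gm26512 on the opposite strand by 100 bases. Dio3 (ENSMUSG00000075707.5, chromosome 12, 110279068 to 110281097), an imprinted gene with 1 exon, was limited to 0.0883 TPM in pup 1 and 0.1001 in pup 3. Each enzyme depends on a selenocysteine at its active site, written in the message as a TGA codon that elsewhere stops translation. The coding sequences around that codon, from GENCODE M21 with the first in-frame TGA in capitals and 30 bases on each side, show what these 2 messages share:
Dio2, codon 130: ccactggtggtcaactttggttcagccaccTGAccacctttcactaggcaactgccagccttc
Dio3, codon 170: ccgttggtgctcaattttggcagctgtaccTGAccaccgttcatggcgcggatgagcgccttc
Of the 63 bases shown, 41 are identical. The Dio2 coding sequence holds 2 in-frame TGA codons and that of Dio3 holds 1, and the annotation marks each of them as selenocysteine.

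Genes that serve the deiodinases were detected in part, and the enzymes' own messages were not counted. Of 6 matched genes for selenocysteine incorporation, 3 were detected in both pups, 2 in pup 3 only and 1 (Sepsecs) in neither. Of all protein-coding genes, 37.8% were detected in both pups, 5.45% in pup 3 only and 44.5% in neither. Pstk, the kinase that prepares the charged transfer RNA, was at 29.7 TPM in pup 1 against 63.1 TPM in pup 3. Sephs2, which makes the selenium donor, had 2 counts in pup 1 against 791 in pup 3. Secisbp2, which binds the selenocysteine signal in the message, had 17 counts in pup 1 against 194 in pup 3, and its relative Secisbp2l was at 4.41 TPM in pup 1 against 7.46 TPM in pup 3. The regulators of type 2 deiodinase protein were also listed. The ubiquitin ligase gene March6 was at 74.7 TPM in pup 1 against 56.3 TPM in pup 3, and the deubiquitinase gene Usp33 at 62.6 TPM in pup 1 against 26.2 TPM in pup 3. Usp20, a relative of Usp33, had 1 count in pup 1 against 3227 in pup 3. Dio1, the deiodinase of liver and kidney, had 0 counts in both.

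Dio3 lies at the far end of the imprinted Dlk1 to Dio3 domain. The non-coding RNAs of the maternal chromosome there differed widely in level, with Meg3 at 1417 TPM in pup 1 against 597 TPM in pup 3 and Rian at 252 TPM in pup 1 against 204 TPM in pup 3. Mirg, the third of them, was at 19.2 TPM in pup 1 against 4.38 TPM in pup 3. Of the protein-coding genes of the paternal chromosome, Dlk1 was at 4.98 TPM in pup 1 against 1.85 TPM in pup 3, and Rtl1 had 720 counts in pup 1 against 0 in pup 3. Of 15 neighbouring or overlapping genes of the 8, these included, 8 were detected in both pups, 1 in each pup alone and 5 in neither.

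Slco1c1 and Crym, the genes for entry and for holding of hormone, stood high in opposite pups. Slco1c1 (ENSMUSG00000030235.13, chromosome 6, 141524368 to 141570177), the thyroxine transporter of brain capillaries, choroid plexus and astrocytes, had 1031 counts and 17.7 TPM in pup 1 and 0 counts in pup 3. Its share of nuclear counts was at least 291-fold higher in pup 1, set against 3 counts in the pup 3 library. Such absences were frequent at this level. Of 1269 other protein-coding genes within 1.25-fold of the Slco1c1 level in pup 1, 31.9% were not detected in pup 3. The pup 1 counts were divided between a protein-coding transcript (535 counts) and one annotated as a target of nonsense-mediated decay (496 counts). The posterior SD of each was 54.4 counts, so their shares of 47.5% and 52.5% of deposited TPM could not be told apart.

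Crym (ENSMUSG00000030905.5, chromosome 7, 120186380 to 120202111) encodes mu-crystallin, which binds triiodothyronine in the cytosol with NADPH. It had 2 counts in pup 1 against 768 in pup 3, at 0.0790 TPM in pup 1 against 32.7 TPM in pup 3. Its share of nuclear counts was 454-fold higher in pup 3 (exact 95% interval 125 to 3758, which covers counting alone, as reads copied by PCR do not stand for separate molecules). All of these counts fell on 1 protein-coding transcript. Of 1351 other protein-coding genes within 1.25-fold of the Crym level in pup 3, 14.7% were not detected in pup 1.

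Markers of the cells that carry Slco1c1 and Dio2 were also looked at. In bulk RNA, fewer cells of a type and less RNA per cell cannot be told apart. All 10 astrocyte and radial glia markers were detected in pup 1, and 8 of the 10 in pup 3, with summed levels of 8564 TPM in pup 1 against 7575 TPM in pup 3, most of it Apoe and Fabp7. In TPM, 9 of the 10 were higher in pup 1, the same direction as Slco1c1, with a median log2 ratio of pup 1 over pup 3 of 0.99. As shares of counts without length scaling, Apoe and Slc1a2 were instead lower in pup 1. The gap junction gene Gja1 was at 416 TPM in pup 1 against 131 TPM in pup 3, and the filament gene Gfap at 166 TPM in pup 1 against 73.8 TPM in pup 3. Aldh1l1 had 6228 counts in pup 1 against 1 in pup 3, and Hopx had 235 in pup 1 and 0 in pup 3, whereas Aqp4, the water channel of astrocytes, was at 84.8 TPM in pup 1 against 66.6 TPM in pup 3. Of 10 endothelial markers 4 were detected in both pups, 3 in pup 1 only and 2 in pup 3 only, with summed levels of 281 TPM in pup 1 against 227 TPM in pup 3. Of the 9 detected, 6 were higher in pup 1, as Slco1c1 was, with a median log2 ratio of 1.53, while Cldn5, Flt1 and Tek were higher in pup 3. Slco1a4, another thyroid hormone transporter of capillaries, was at 0 in both pups. Of 6 choroid plexus markers 3 were detected in both pups, with summed levels of 3161 TPM in pup 1 against 3520 TPM in pup 3 and a median log2 ratio of 0.13 over the 4 detected. Of 6 tanycyte and ependymal markers 1 was detected in both pups, Rax was at 0 in both, and the summed levels were 59.9 TPM in pup 1 against 7.30 TPM in pup 3, with a median log2 ratio of 2.71 over the 4 detected. The part of these cell types in the levels of Slco1c1 was not tested.

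The other transporters in the list fell into a detected and an undetected set. Slc3a2, the heavy chain of the large amino acid transporters, was at 80.4 TPM in pup 1 against 122 TPM in pup 3, and its light chain Slc7a5 at 39.3 TPM in pup 1 against 11.6 TPM in pup 3. Of the 9 genes in the list, 3 were detected in both pups. A second light chain, Slc7a8, had 0 counts in pup 1 against 1910 in pup 3. Slco4a1 had 0 in pup 1 and 1350 in pup 3. Their shares of nuclear counts were higher in pup 3 by at least 753-fold for Slc7a8 and at least 532-fold for Slco4a1. In pup 3 Slc7a8 was at 26.6 TPM and Slco4a1 at 25.6 TPM. Of 1351 other protein-coding genes within 1.25-fold of the Crym level there (32.7 TPM), 14.7% were not detected in pup 1. Slc7a8 lay at the lower end of this band and Slco4a1 just below it. Slc16a10, Slco1a4, Slco1a5 and Slc17a4 were at 0 in both pups. The extracellular carrier Ttr, made by the choroid plexus, was at 3028 TPM in pup 1 against 3380 TPM in pup 3, while the blood carriers Alb and Serpina7 were at 0.

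Klf9 was the response gene that could be measured. It encodes a zinc finger factor that triiodothyronine induces directly through its receptors in neurons and oligodendrocytes. Klf9 (ENSMUSG00000033863.1, chromosome 19, 23141226 to 23168134) had 303 counts in pup 1 against 790 in pup 3, at 4.62 TPM in pup 1 against 13.7 TPM in pup 3, and pup 1 was the lower with a log2 ratio of pup 1 over pup 3 of -1.38. Of 501 other protein-coding genes detected in both pups near its level, 63.5% differed by as much or more. Thra and Klf9 were thus both lower in pup 1, by amounts that were common among genes of their levels. Hr (ENSMUSG00000022096.10, chromosome 14, 70552212 to 70573548), which encodes a corepressor that binds thyroid hormone receptors and is itself a direct hormone target in the newborn brain, had 0 counts in both pups in all 5 of its listed transcripts. Its limit was 0.0438 TPM in pup 1 and 0.0497 in pup 3.

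**Figure D4:**
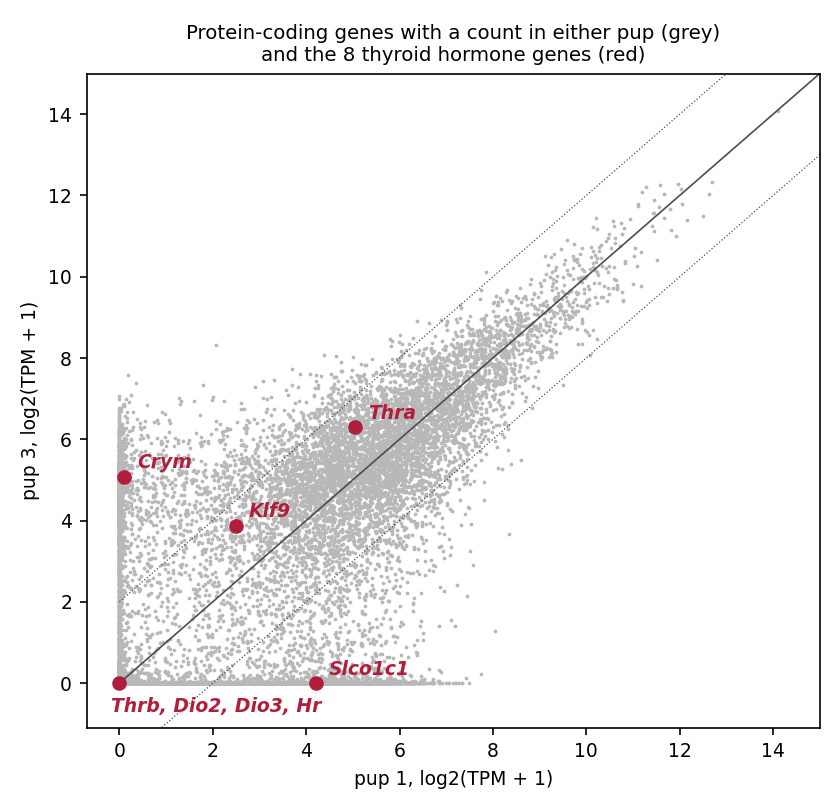
log2(TPM + 1) in pup 1 (horizontal) against pup 3 (vertical) for protein-coding genes with a count in either pup (grey) and the 8 thyroid hormone genes (red); the solid line marks equal levels and the dotted lines 4-fold. Thra and Klf9 lie above the solid line within the dotted ones, Crym and Slco1c1 lie along opposite axes with many grey genes, and 4 genes sit at the origin.

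Klf9 was compared with 13 other Krüppel-like factor genes, a family of zinc finger regulators of growth and differentiation. Of these, 6 were detected in both pups, 3 in pup 1 alone, 2 in pup 3 alone and 2 (Klf2 and Klf5) in neither. Klf7, a factor of axon outgrowth, was at 96.0 ± 23.2 TPM and Klf10 at 86.2 ± 7.40 TPM (SD, n = 2), both above Klf9 at 9.14 ± 6.40 TPM. Klf13, the nearest relative of Klf9, was at 60.2 TPM in pup 1 against 12.7 TPM in pup 3, the opposite direction to Klf9. Klf6 was at 21.4 TPM in pup 1 against 28.2 TPM in pup 3.

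Among 19 genes known to respond to thyroid hormone in brain, a list that holds Klf9, Hr and Dio3 as well, 14 were detected in both pups, 1 in pup 1 alone, 1 in pup 3 alone and 3 (Hr, Dio3 and Shh) in neither. The 16 genes detected in at least 1 pup had a median log2 ratio of pup 1 over pup 3 of 0.28. Over all protein-coding genes that median turned on the filter, at 0.14 for the 11245 with a count of at least 50 in either pup and -0.14 for the 8102 detected in both. The highest was Cirbp, a cold-inducible RNA-binding protein, at 770 TPM in pup 1 against 443 TPM in pup 3. Mbp, the myelin basic protein gene, was at 302 TPM in pup 1 against 200 TPM in pup 3, and Cnp, another myelin gene, at 137 TPM in pup 1 against 67.7 TPM in pup 3. Pcp2, of Purkinje cells, was at 64.4 TPM in pup 1 against 91.8 TPM in pup 3. Nrgn, a calmodulin-binding protein of forebrain neurons and a classical triiodothyronine target, had 0 counts in pup 1 against 163 in pup 3. Of 6 genes that respond in liver, Fasn and Me1, enzymes of lipid synthesis, were detected in both pups. Their levels were 66.8 ± 3.70 TPM for Fasn and 43.0 ± 1.97 TPM for Me1 (SD, n = 2). As shares of counts without length scaling, Fasn was 1.93-fold and Me1 1.23-fold higher in pup 3. Thrsp, G6pc, Cyp7a1 and Dio1 had 0 counts in both pups.

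The receptor's partners were detected unevenly and its coregulators in nearly full number. None of the 3 RXR genes was detected in both pups. Rxra had 1175 counts in pup 1 against 0 in pup 3, Rxrb 1041 in pup 1 and 0 in pup 3, and Rxrg 4 in pup 1 and 820 in pup 3. The share of nuclear counts was thus higher in pup 1 by at least 331-fold for Rxra and at least 293-fold for Rxrb. In pup 1 Rxra was at 11.8 TPM and Rxrb at 22.7 TPM. Of 1269 other protein-coding genes within 1.25-fold of the Slco1c1 level there (17.7 TPM), 31.9% were not detected in pup 3. Rxra lay below this band and Rxrb just above it, so the share is not matched to the level of either. Of all protein-coding genes, 12.3% were detected in pup 1 only and 5.45% in pup 3 only. All 6 genes of the corepressor complex were detected in both pups. Its deacetylase Hdac3 was at 98.7 TPM in pup 1 against 64.3 TPM in pup 3, Gps2 at 28.3 TPM in pup 1 against 56.5 TPM in pup 3, and Tbl1x at 25.8 TPM in pup 1 against 49.4 TPM in pup 3. Ncor1, the scaffold that contacts the receptor, was at 11.4 TPM in pup 1 against 16.5 TPM in pup 3. As a share of counts without length scaling, Ncor1 was instead 1.22-fold higher in pup 1. Of 7 coactivator genes 6 were detected in both pups, among them Ncoa1 at low counts, 8 in pup 1 against 36 in pup 3. The Mediator subunit Med1 was at 72.2 TPM in pup 1 against 29.8 TPM in pup 3, and the acetyltransferase Crebbp at 36.1 TPM in pup 1 against 31.6 TPM in pup 3. Ncoa3 was at 11.1 TPM in pup 1 against 51.96 TPM in pup 3, and the acetyltransferase Ep300 at 0.565 TPM in pup 1 against 16.7 TPM in pup 3. As shares of counts without length scaling these gaps were smaller, with Ncoa3 1.53-fold and Ep300 13.8-fold higher in pup 3. Carm1, an arginine methyltransferase, had 283 counts in pup 1 against 0 in pup 3.

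**Figure D5:**
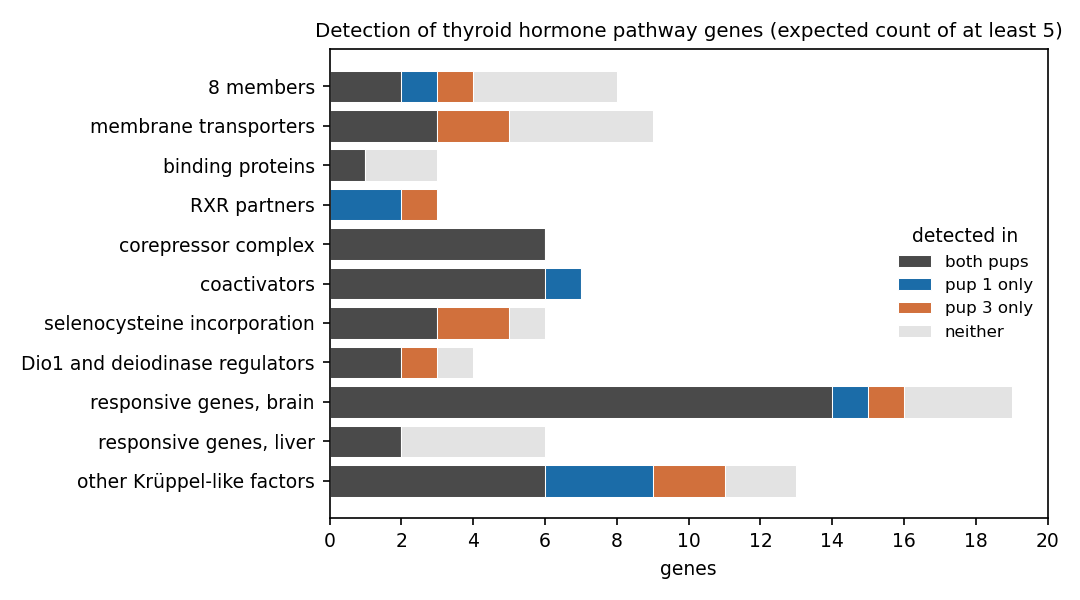
Number of genes of each list detected in both pups (dark grey), pup 1 only (blue), pup 3 only (orange) or neither (light grey), at an expected count of at least 5. All 6 corepressor genes and 6 of 7 coactivators were detected in both pups, against 0 of 3 RXR genes and 2 of the 8 genes described here. Of all protein-coding genes, 37.8% were detected in both pups, and the lists were not matched for level.

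Across transporters, RXR partners, coregulators and selenocysteine genes together, without the 8 genes, 18 of 31 were detected in both pups, 3 in pup 1 alone, 5 in pup 3 alone and 5 in neither. The shares over all protein-coding genes were 37.8% in both, 12.3% in pup 1 alone, 5.45% in pup 3 alone and 44.5% in neither. The genes were not matched to this background for level.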

How the data were processed

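RNA of 2 P0 hindbrains was measured in 1 library each. Per the deposited notes, values were made from transcriptome alignments on mm10 with annotation M4; aligner, versions and strand, not given in the sources used here, stay unknown. The authors deposited, per the file headers, expected counts, TPM, FPKM, posterior means with bounds, and the percent of a gene's TPM taken by each transcript. Of 43346 mouse gene identifiers 42462 matched GENCODE M21 (GRCm38, the same assembly), which gave symbols, 1-based coordinates and transcript sequences. From the deposited TPM, levels were rescaled to 1000000 over nuclear genes. A pseudocount of 1 preceded log2, which understates differences of low genes, and folds needed an expected count of at least 50 in 1 pup. Against 0 counts a fold is a lower bound set at 3 counts in that library. The fold calls were tested on simulated data that held counting noise alone. That test therefore does not cover the loss of molecules before amplification. No likeness of pattern was sought, since 2 libraries give none.

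The genes and lists were chosen with earlier results of these data known. The rule named all 8 genes, the 4 highest of each list and genes a result turns on; other genes named were chosen after their values were seen. Not every gene covered by this rule is reported here. Of the listed symbols, Sbp2l and Dio3os were not matched to a gene of the deposited tables, and no values are given under these names. Alternatives were other detection limits, pseudocounts, folds and minimum counts, thinning, deposited TPM, FPKM, CPM, factors of edgeR 4.0.16 (TMM) and DESeq2 1.42.0 on rounded expected counts, protein-coding and spike-in scaling, posterior means and each library alone. Posterior means for the ratios were added after seeing the data. Python packages were pandas 2.3.3 and scipy 1.17.1.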

Additional observations from a re-analysis of the deposited data

How the results depend on the processing

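With a fold of 2 in place of 4, 4 genes in place of 2 were past the fold, 3 of them higher in pup 3 (Thra, Klf9 and Crym) in place of 1. Posterior mean TPM, which a prior keeps above 0, gave 0.0281 for Thrb, 0.0113 for Dio2, 0.0619 for Dio3 and 0.467 for Hr in place of 0, with no counts behind them. Of the other alternatives run, 106 kept their direction and side of the threshold or stayed within 1.5 times or 1 SD. These include a detection limit of 1 expected count, at which 3 genes in place of 2 were detected in both pups. The added gene was Crym, with 2 counts in pup 1. For levels, 1 SD over 2 differing pups is a wide allowance, as for Thra at 54.9 ± 32.1 TPM. Leaving out 1 of 2 libraries says nothing about stability, since each lies within 1 SD of their mean by construction. With 1 library alone, 3 of the 8 genes were detected in either pup. The level in pup 1 alone and pup 3 alone was 0.0790 and 32.7 TPM for Crym, 17.7 and 0 TPM for Slco1c1, 4.62 and 13.7 TPM for Klf9 and 32.2 and 77.6 TPM for Thra. Over 10 scalings and pseudocounts, the log2 ratio of pup 1 over pup 3 lay between -1.34 and -1.15 for Thra, -1.54 and -0.96 for Klf9, 2.18 and 7.47 for Slco1c1 and -7.52 and -2.89 for Crym. DESeq2 factors moved the median ratio of genes detected in both pups by 0.14 and TMM factors by 0.12, from -0.14. No paired analysis was possible because there is 1 group. Alone, pup 1 gave a TRα1 share of 18.1% and pup 3 gave 0%.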
